A study of Mus musculus with 16 samples.

Results

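The Iroquois family of the mouse has 6 genes, Irx1 to Irx6, and each was read on these arrays by 1 probe set that the platform annotation gives to that gene alone, so that 6 of 45101 probe sets and 6 of 18194 genes were described. The family was selected on measured values: it was taken up because a lower Irx5 signal in Erk2 mutants at both stages was already known from these arrays. The mutant-control differences of the 6 genes are therefore given as a description, with their errors. Which of them the fit across all genes called is stated beside the share of all genes called, and supports nothing. RNA labelled as palate mesenchyme came from C57BL/6J mouse embryos in 4 groups: 3 Erk2 fl/fl; Wnt1-Cre mutants and 3 Erk2 fl/fl controls at embryonic day 13.5 (E13.5), and 5 mutants and 5 controls of the same genotypes at E14.5. Both genotypes carried the floxed Erk2 alleles, although the titles name the controls as wild-type. Wnt1-Cre deletes Erk2 in neural crest cells and their descendants. Cells of other origin in the mutants, such as epithelium, muscle fibres and endothelium, keep the gene. The E14.5 arrays were labelled as 2 batches, with 2 arrays of each genotype in batch 1 and 3 of each in batch 2, and the E13.5 arrays have no batch label. The labels speak of tissue in 1 place and of primary cells in another, and do not say whether an array holds 1 embryo or several, so the errors measure only the spread between these arrays. The level of Erk2 itself was not analysed here, and the genotype labels have no expression check.

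Iroquois proteins are homeodomain transcription factors of the TALE class, named for a loop of extra residues in the homeodomain, and they carry a short conserved motif, the Iro box. They act in patterning of the nervous system, heart, limb and face, and loss of IRX5 function in people causes Hamamy syndrome, in which the face and skull are affected. In the mouse, Irx3, Irx5 and Irx6 lie together on chromosome 8, and Irx1, Irx2 and Irx4 lie together on chromosome 13. Genes of 1 cluster often share enhancers and patterns of expression.

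The stretches before the starts of Irx3 and Irx2 are shown because each stands for 1 of the chromosomal groups and for 1 of the patterns of signal described here. The sequences are the 250 bases before the start that the RefSeq promoter table gives for each gene, read 5′ to 3′ on the strand of the gene, with CpG dinucleotides in capitals. For Irx3 this start is the outer end of the annotated gene. For Irx2 and Irx4 the table's start, and the stretch before it, lie inside the annotated span of the gene. The Irx3 stretch lies at chr8:91801655-91801904 on the minus strand and the Irx2 stretch at chr13:72628570-72628819 on the plus strand of GRCm38.p6.
Irx3: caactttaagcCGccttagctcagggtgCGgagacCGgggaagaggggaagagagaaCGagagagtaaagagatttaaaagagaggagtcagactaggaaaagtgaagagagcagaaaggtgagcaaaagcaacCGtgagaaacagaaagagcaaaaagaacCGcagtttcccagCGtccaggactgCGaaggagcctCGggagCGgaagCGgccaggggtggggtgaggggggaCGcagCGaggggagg
Irx2: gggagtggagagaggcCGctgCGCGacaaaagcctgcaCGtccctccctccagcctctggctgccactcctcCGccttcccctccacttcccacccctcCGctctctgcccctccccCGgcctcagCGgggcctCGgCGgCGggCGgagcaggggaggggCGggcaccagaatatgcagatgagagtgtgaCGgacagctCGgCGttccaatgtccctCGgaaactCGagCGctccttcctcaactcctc
Among the 6 genes, Irx2, Irx3 and Irx4 have an entry in the promoter table used. The Irx3 stretch holds 13 CpG at a GC content of 56.0%, the Irx2 stretch 19 CpG at 68.4%, and the Irx4 stretch 22 CpG at 68.8%. The median over all 32851 stretches of this length was 6 CpG and 52.4% GC, and 31.5%, 19.7% and 14.8% of them hold at least as many CpG as Irx3, Irx2 and Irx4. A search of both strands for an ETS-type motif (CCGGAAG, in 6.91% of all stretches), the AP-1 motif (TGANTCA, in 6.75%), a GLI motif (GACCACCCA, in 0.225%) and a TATA box (TATAAA, in 12.4%) found none of these letters in the 3 stretches.

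All values are GCRMA log2 signals as deposited. A signal shows a gene's level between arrays, and the levels of different genes are not compared from it. Percentiles within an array, and the range of Irx6 beside Irx2, are given only to mark low signal. A gene was tested where at least 3 arrays reached a log2 signal of 4, which 11116 genes did. Irx3 and Irx5 reached 4 on all 16 arrays, Irx1 on 11 and Irx2 on 5. Irx4 and Irx6 reached it on none, and these 4 of the 6 genes entered the fit. Because Irx2 passes the filter through its E13.5 arrays, and Irx4 and Irx6 do not pass it, no count over the 4 genes is read as support for a change of the family.

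Irx3 and Irx5, the neighbouring factors of the chromosome 8 group, had lower signal in the mutants at both stages. At E13.5 the Irx5 signal was 6.86, 6.84 and 6.63 in the mutants and 7.34, 7.19 and 7.26 in the controls. The E14.5 arrays read 7.09, 7.15, 6.95, 7.15 and 7.06 in the mutants and 7.47, 7.33, 7.44, 7.43 and 7.63 in the controls. Each mutant array was below each control array of its stage, with a gap of 0.33 between the nearest arrays at E13.5 and 0.17 at E14.5. The group means were 6.78 ± 0.13 (SD, n = 3) against 7.26 ± 0.08 (SD, n = 3) at E13.5, and 7.08 ± 0.08 (SD, n = 5) against 7.46 ± 0.11 (SD, n = 5) at E14.5. The fitted mutant-minus-control difference of Irx5 was -0.49 ± 0.08 log2 units (moderated SE) at E13.5 and -0.38 ± 0.06 at E14.5.

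Irx3 showed the same order of groups. Its signal at E13.5 was 8.22, 8.13 and 8.03 in the mutants and 8.57, 8.37 and 8.50 in the controls. At E14.5 it was 8.08, 8.17, 8.11, 8.28 and 8.28 in the mutants and 8.72, 8.48, 8.60, 8.47 and 8.60 in the controls. The groups did not overlap, and the nearest mutant and control arrays were 0.16 apart at E13.5 and 0.18 apart at E14.5. The means were 8.13 ± 0.10 (SD, n = 3) against 8.48 ± 0.10 (SD, n = 3), and 8.18 ± 0.09 (SD, n = 5) against 8.57 ± 0.10 (SD, n = 5). The fitted difference of Irx3 was -0.35 ± 0.08 at E13.5, a ratio of 0.782, and -0.39 ± 0.06 at E14.5, a ratio of 0.763. In bulk RNA such as this, fewer cells that express a gene and less of its RNA per cell cannot be told apart.

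**Figure D1:**
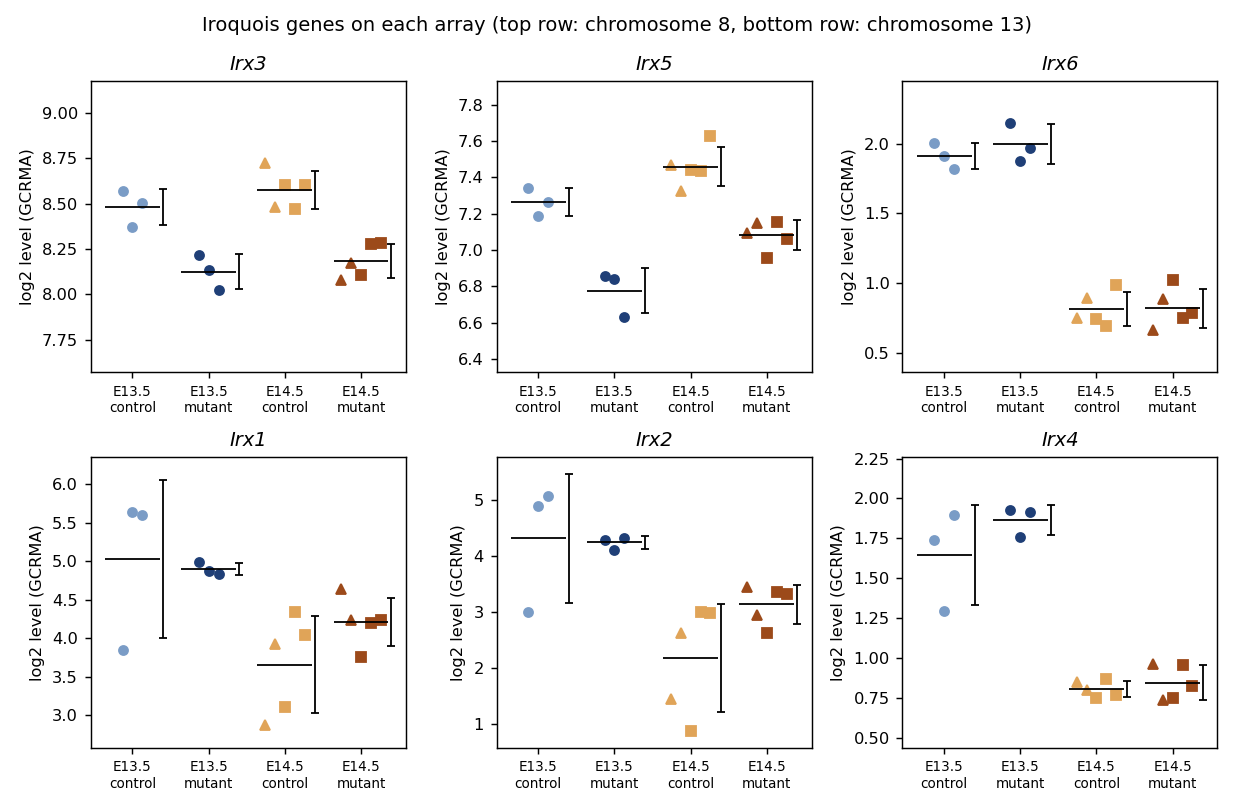
GCRMA log2 signal of the 6 Irx genes on each of the 16 arrays (vertical axis, with a scale of its own for each gene) by stage and genotype (horizontal axis), with bars for the group mean and SD. The mutant arrays of Irx3 and Irx5 lie below every control array of their stage, while the control arrays of Irx1 and Irx2 spread over a wider range than the mutant arrays.

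With limma and Benjamini-Hochberg adjustment over all genes tested, an adjusted p under 0.05 was reached at E13.5 by Irx5 alone among the 4 genes, where 0.099% of all genes were called and 0.081% were called lower. At E14.5 it was reached by Irx3 and Irx5, where 2.63% were called and 1.15% were called lower. These calls rest on the values that chose the family, and nothing is read from them. Mutants lay below controls without overlap for 13.5% of all genes at E13.5, for 1.88% at E14.5, and for 0.558% at both stages, and 0.036% of genes were called lower at both stages. The threshold at E13.5 falls between Irx5 at -0.49 and Irx3 at -0.35. The E13.5 call of Irx5 was lost when any of these arrays was left out: E13.5 mutants 1 and 3, all 3 E13.5 controls, E14.5 mutants 1, 4 and 5, or E14.5 controls 1 and 3. Over 29 alternatives in all the difference ran from -0.53 to -0.41, and 13 of them kept the call.

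The differences at E14.5 were negative for both genes in each labelled batch. Irx3 differed by -0.47 in batch 1 and by -0.33 in batch 2, and Irx5 by -0.27 and by -0.44. Calls by batch came from fits that left out the other E14.5 batch and kept the 6 E13.5 arrays, which add to the estimate of spread. With batch 1 as the only E14.5 batch neither was called, and with batch 2 Irx5 was called and Irx3 was not. Sex was read from sex-linked transcripts, as female where the Xist signal exceeded those of Eif2s3y, Kdm5d and Ddx3y. By this rule all 6 E13.5 arrays read as female, and at E14.5 so did 3 of 5 mutant and 1 of 5 control arrays. RNA pooled from embryos of both sexes could also meet the rule. With sex as a term the E14.5 difference was -0.33 for Irx3 and -0.36 for Irx5. The difference between the genotype effects at the 2 stages was -0.04 ± 0.10 for Irx3 and 0.11 ± 0.10 for Irx5. By limma 0 of the 4 genes passed the test of that difference after adjustment, where 0.117% of all genes did and 0.018% were called lower. At an unadjusted p under 0.05 the count of the 4 genes was 0 as well.

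Irx6, the third gene of the chromosome 8 group, stayed low on the arrays. Its signal ran from 1.82 to 2.15 at E13.5 and from 0.66 to 1.02 at E14.5, with mutants and controls overlapping at both stages. Crnde, a long non-coding RNA gene between Irx3 and Irx5 that is transcribed away from Irx5, was taken up for its position after its values were seen. Its signal at E13.5 was 4.60, 4.55 and 4.76 in the mutants and 4.99, 5.00 and 5.09 in the controls. At E14.5 Crnde was at 3.21, 3.08, 3.05, 3.07 and 3.46 in the mutants and 3.49, 3.44, 3.48, 3.32 and 3.67 in the controls. All 3 mutants at E13.5 and 4 of 5 at E14.5 were below every control. Mutants lay below controls without overlap for 13.5% of all genes at E13.5. The share of genes with 4 of 5 mutants below every control at E14.5 was not measured. Neither count is read as particular to Crnde. The Crnde difference was -0.39 ± 0.10 at E13.5 (limma, adjusted p = 0.237) and -0.30 ± 0.08 at E14.5 (adjusted p = 0.065), so neither passed the threshold.

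The genes next to the chromosome 8 group did not pass the test. Of the nearest 5 named genes on each side, 8 of 10 were tested, and 0 were called at either stage by limma. At an unadjusted p under 0.05 there were 3 at E13.5 and 0 at E14.5. Of all genes, 0.099% were called at E13.5 and 2.63% at E14.5. A count of 0 among so few neighbours, around either group, is therefore not read as a contrast with the Irx genes. The differences of these neighbours ran from -0.26 to 0.30 at E13.5 and from -0.19 to 0.15 at E14.5. Fto, an RNA demethylase gene whose introns hold enhancers that contact Irx3, differed by -0.06 ± 0.07 and -0.05 ± 0.06. Mmp2, a matrix metalloproteinase gene on the other side, differed by -0.09 ± 0.08 and -0.04 ± 0.06. The 3 genes were Rbl2, a retinoblastoma family gene, at -0.26 ± 0.07, Tox3, an HMG-box gene, at -0.21 ± 0.09, and Slc6a2, a noradrenaline transporter gene, at 0.30 ± 0.12. Around the chromosome 13 group, 7 of 10 neighbours were tested and 0 were called by limma, 0 also at an unadjusted p under 0.05, with differences from -0.09 to 0.13 at E13.5 and from -0.03 to 0.12 at E14.5.

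**Figure D2:**
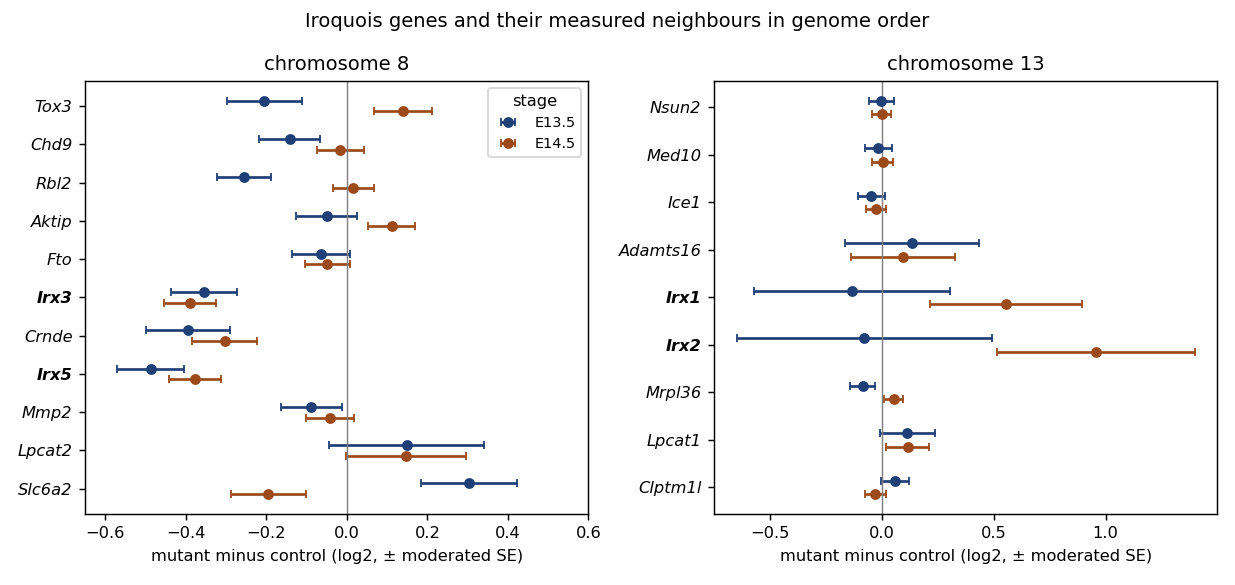
Mutant-minus-control difference in log2 signal (with moderated SE) of the Irx genes, Crnde and the tested neighbouring genes, in chromosomal order, at E13.5 and E14.5. Irx3, Irx5 and Crnde lie below 0 at both stages, while the neighbours lie between -0.26 and 0.30, and the intervals of Irx1 and Irx2 are the widest.

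Irx1 and Irx2, the factors of the chromosome 13 group that entered the fit, had no consistent order of genotypes. At E13.5 the Irx1 signal was 4.98, 4.87 and 4.84 in the mutants and 3.85, 5.64 and 5.60 in the controls. At E14.5 Irx1 was at 4.63, 4.24, 3.76, 4.20 and 4.24 in the mutants and 2.88, 3.92, 3.10, 4.34 and 4.05 in the controls. The mutants lay inside the range of the controls at E13.5 and overlapped it at E14.5. Control 1 at E13.5 and controls 1 and 3 at E14.5 were the low arrays.

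The same 3 control arrays were lowest for Irx2. Its signal at E13.5 was 4.29, 4.11 and 4.32 in the mutants and 2.99, 4.90 and 5.06 in the controls. At E14.5 it was 3.45, 2.93, 2.62, 3.35 and 3.32 in the mutants and 1.43, 2.62, 0.87, 2.99 and 2.97 in the controls. The control SD of Irx2 was 1.15 at E13.5 and 0.97 at E14.5, against 0.11 and 0.35 in the mutants. Every Irx2 array at E14.5 was below the log2 signal of 4 that the filter asks for. Control 3 at E14.5 stood at the percentile of 21.45 of its array, inside the E14.5 range of Irx6, 0.66 to 1.02. The E14.5 difference, the control SD and the correlations of Irx2 rest in part on such low values.

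The fitted difference of Irx1 was -0.13 ± 0.44 at E13.5 and 0.55 ± 0.34 at E14.5, and that of Irx2 was -0.08 ± 0.57 and 0.96 ± 0.44. Without E13.5 control 1 the E13.5 differences became -0.73 for Irx1 and -0.74 for Irx2. Without E14.5 controls 1 and 3 the E14.5 differences became 0.10 and 0.28, although leaving out the lowest controls by itself makes a positive difference smaller. Irx3 and Irx5 at E14.5 differed by -0.33 and -0.38 without the same 2 controls, and at E13.5 by -0.31 and -0.45 without control 1. By batch at E14.5, Irx1 differed by 1.03 in batch 1 and 0.23 in batch 2, and Irx2 by 1.17 and 0.82.

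Irx4, the ventricular heart factor of the family, stayed low: from 1.29 to 1.93 at E13.5 and from 0.74 to 0.96 at E14.5, with overlapping genotypes. These signals of Irx4 and Irx6 stand at or below the percentile of 31.33 among all probe sets of their arrays, and no fold is given for them.

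Variation inside the groups was compared over all 16 arrays, and the 2 pairs of tested genes that share a chromosome passed. Neither passed within the E14.5 arrays alone. Those arrays allow far fewer permutations, which raises the smallest possible p, so that outcome is not read as a failure to repeat. The share of all gene pairs that would pass was not measured, so the passing of these pairs is not read as particular to the 2 chromosomal groups. Among genes outside the family picked as most alike, r inside the groups was 0.944 for Bex1 with Irx2 and 0.863 for Crispld2 with Irx5. It was 0.828 for Rai14 with Irx3, and others ran down to 0.389 for Tnfrsf19 with Irx5. Each array was set against the mean of its stage, genotype and batch, which removes the differences that chose the family. Over the 16 arrays, Irx3 and Irx5 varied together with r = 0.826 (exact permutation p = 0.00347 two-sided, adjusted p = 0.0168 over 6 pairs) and rho = 0.835 (exact permutation, adjusted p = 0.0162). Without the 2 arrays farthest from the median, r was 0.791. Irx1 and Irx2 varied together with r = 0.959 (exact permutation p = 0.00559, adjusted p = 0.0168) and rho = 0.941 (exact permutation, adjusted p = 0.0255), and r was 0.945 without the 2 farthest arrays. Within the 10 E14.5 arrays alone, r was 0.769 for Irx3 with Irx5 (exact permutation, adjusted p = 0.208) and 0.961 for Irx1 with Irx2 (exact permutation, adjusted p = 0.0833).

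Pairs across the chromosomes did not pass. The value for Irx1 with Irx3 was r = -0.485 and for Irx2 with Irx3 r = -0.406 (exact permutation, adjusted p = 0.315 for both). For Irx1 with Irx5 it was -0.21 (exact permutation, adjusted p = 0.58), and for Irx2 with Irx5 -0.075 (exact permutation, adjusted p = 0.816). The Irx1 and Irx2 relation leaned on the low control arrays: without all 3 of them r was 0.856 (exact permutation, adjusted p = 0.302). The Irx3 and Irx5 relation was r = 0.898 there (exact permutation, adjusted p = 0.0417). Leaving out E13.5 control 1 gave Irx1 with Irx2 r = 0.952, leaving out E14.5 control 3 gave 0.982, and leaving out E14.5 mutant 3 gave 0.958, each with an adjusted exact permutation p of 0.0504. Without E14.5 mutant 3, Irx3 with Irx5 was also past the threshold no longer, at r = 0.790 (exact permutation, adjusted p = 0.0504). Each omission leaves fewer permutations.

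**Figure D3:**
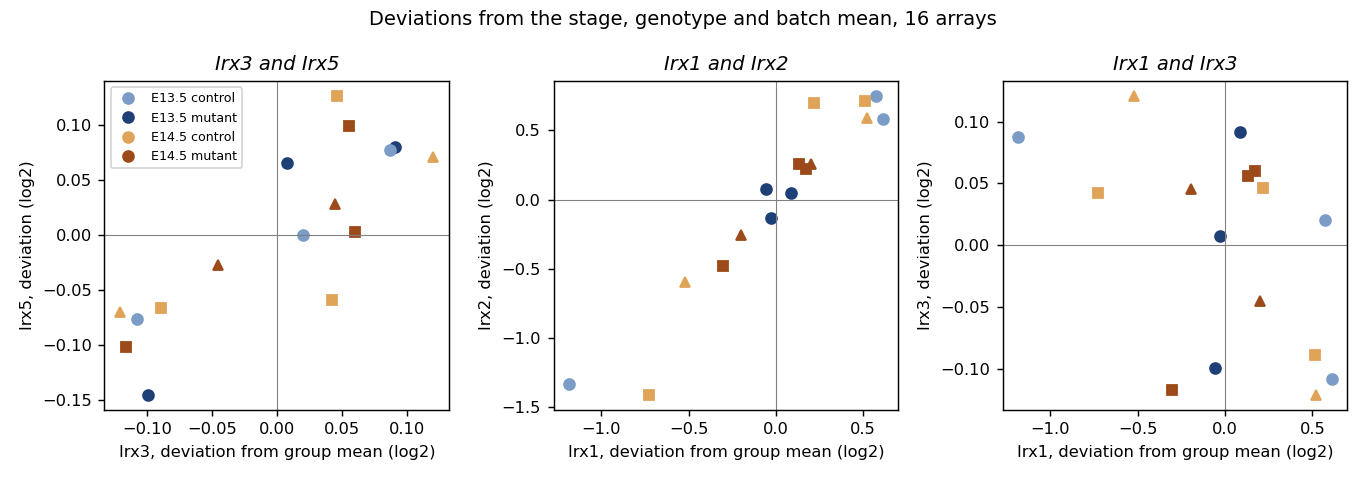
Deviation of each array from the mean of its stage, genotype and batch, in log2 units, for Irx3 against Irx5, Irx1 against Irx2 and Irx1 against Irx3 (16 arrays, coloured by group, with a symbol for each batch label). The Irx3-Irx5 and Irx1-Irx2 panels rise together, with r = 0.826 and r = 0.959, and the last does not, with r = -0.485.

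The stages differ in the distribution of deposited values. Array medians ran from 3.386 to 3.445 at E13.5 and from 1.631 to 1.659 at E14.5, and development, normalization and hybridization cannot be told apart between them. Over all genes tested the median change from E13.5 to E14.5 was -0.63 in controls and -0.56 in mutants. A change between stages was called for 86.5% of all genes in controls and 85.3% in mutants, so the calls of the Irx genes say nothing particular about them. In controls the change was -1.37 for Irx1 (limma, adjusted p = 0.0045) and 0.19 for Irx5 (adjusted p = 0.0248), while Irx3 at 0.09 did not pass. Irx2 changed by -2.15, a value given without its test, since Irx2 entered the fit only through its E13.5 arrays. The Irx5 call in controls was lost without E13.5 control 2, E13.5 control 3 or E14.5 control 5, with changes from 0.15 to 0.19. In mutants Irx5 changed by 0.30 (limma, adjusted p = 0.00149), and Irx1 at -0.69 and Irx3 at 0.06 did not pass. The Irx2 value was -1.11.

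Irx3 and Irx5 had higher means at E14.5 under each scaling run, while the direction of Irx1 and Irx2 depended on the scaling. After quantile normalization of all arrays the median change of all genes was -0.08 in controls and -0.06 in mutants. On that scale Irx5 changed by 0.57 in controls and 0.70 in mutants, and Irx3 by 0.30 and 0.28. Irx1 then changed by 0.0071 in controls and 0.68 in mutants, and Irx2 by -0.58 and 0.58, so the direction of Irx1 in both genotypes and of Irx2 in mutants flipped. In controls the limma call of Irx1 was lost on that scale (adjusted p = 0.989) and a call of Irx3 was gained (adjusted p = 0.00147), as it was in mutants (adjusted p = 0.00227). With each array centred on its median, where all genes changed by a median of 1.12 in controls and 1.23 in mutants, the control changes were 1.84 for Irx3 (limma, adjusted p = 1.4e-12) and 0.37 for Irx1 (adjusted p = 0.375).

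Likeness to each Irx gene was measured over the 16 arrays after each array was set against the mean of its stage and batch, which leaves the genotype difference in. RIKEN clones, predicted genes and unnamed clones were left out of the ranking. The 5 named genes most like Irx5 were Ptger4 (r = 0.935), Irx3 (r = 0.925), Ptch1 (r = 0.920), Crispld2 (r = 0.886) and Tnfrsf19 (r = 0.879). Ptger4 encodes a prostaglandin E2 receptor, Ptch1 the Hedgehog receptor, Crispld2 a secreted protein studied in orofacial clefting and Tnfrsf19 a receptor of the tumour necrosis factor family. With genotype removed as well, r with Irx5 was 0.863 for Crispld2, 0.826 for Irx3, 0.783 for Ptch1, 0.57 for Ptger4 and 0.389 for Tnfrsf19. All 5 had lower signal in mutants at both stages, as likeness on this scale favours, and Ptger4 differed by -0.62 ± 0.11 at E13.5 and -0.47 ± 0.09 at E14.5.

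The genes most like Irx3 were Rai14, which encodes an actin-binding ankyrin repeat protein (r = 0.936), and Dixdc1, which encodes a DIX domain protein of Wnt signalling (r = 0.927). For Irx1 they were Irx2 (r = 0.945) and Bex1 (r = 0.896), and for Irx2 they were Bex1 (r = 0.947) and Irx1 (r = 0.945). Bex1 encodes a small adaptor protein of neural tissue, and its genotype differences were 0.01 ± 0.09 and 0.15 ± 0.07. These values were picked as the highest among the named genes tested and carry no test.

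The other TALE homeobox genes, which encode partners and relatives of the Iroquois factors, were read from 9 tested genes of 12 listed. At E13.5 7 were lower and 2 higher, with 0 called by limma, 0 at an unadjusted p under 0.05, and a median of -0.06 against -0.04 over all genes. At E14.5 the median was 0.04 against 0.01 over all genes. There 2 of the 9 were called, where 2.63% of all genes were: Mkx, the Iroquois-related tendon factor Mohawk, fell by 0.30 ± 0.07 (limma, adjusted p = 0.0447), and Tgif1, a repressor of TGF-beta and retinoid responses, rose by 0.28 ± 0.07 (adjusted p = 0.0494). Meis1, a Hox cofactor, was at 0.22 ± 0.07 (adjusted p = 0.113).

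Of 7 genes known as partners or targets of Irx factors, 4 were tested and 0 were called by limma at either stage, 0 also at an unadjusted p under 0.05. Of all genes, 0.099% were called at E13.5 and 2.63% at E14.5, so 0 of 4 is not read as a result. Trps1, a zinc-finger partner of IRX5, differed by -0.23 ± 0.11 at E13.5 and 0.16 ± 0.09 at E14.5. Cxcl12, a chemokine gene that IRX5 represses in the branchial arches, differed by 0.15 ± 0.12 and 0.06 ± 0.09. Gja1, a gap junction gene, differed by 0.00 ± 0.08 and 0.01 ± 0.06, and Kcnd2, a potassium channel gene repressed by Irx5 in the heart, by 0.08 ± 0.19 and -0.12 ± 0.15. Gata3, the other zinc-finger partner, did not pass the filter on low signal.

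Genes known for anterior or posterior expression in the palatal shelf are given beside the Irx genes. Over all genes tested, 68.5% were lower in mutants at E13.5 and 44% at E14.5, and direction counts of the lists stand beside these shares. The 4 tested anterior genes were lower at both stages with 0 called by limma, and Fgf10 at E13.5 was the 1 with an unadjusted p under 0.05. The largest differences were Fgf10 at -0.31 ± 0.09 and Msx1 at -0.34 ± 0.25, both at E13.5. The 4 tested posterior genes were lower at E13.5, led by Mn1 at -0.21 ± 0.12, and 1 was lower at E14.5, with 0 called by limma and 0 at an unadjusted p under 0.05. Of all genes, 0.099% were called at E13.5 and 2.63% at E14.5, so these counts of 0 are not read as a result. The part of the position genes in the Irx differences was not tested.

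Marker lists of the cell types that palate RNA could hold were set beside the Irx values. The 7 palatal mesenchyme markers each reached log2 4 and passed the filter, with array means from 8.88 to 9.27. Of them 7 of 7 were lower in mutants at E13.5 and 6 of 7 at E14.5. By limma 0 were called, where 0.099% and 2.63% of all genes were, and 2 and 3 had an unadjusted p under 0.05. The 6 tested osteoblast markers were lower in mutants at both stages, with 0 called at E13.5, where 5 had an unadjusted p under 0.05, and 4 called at E14.5, where 2.63% of all genes were. At E14.5 the mutant arrays had osteoblast means from 7.46 to 8.27 and the control arrays from 8.18 to 8.70. The 12 oral epithelium markers were higher in mutants at E14.5, with 7 called by limma against the same share of all genes, and the epithelial means of the mutant arrays, from 7.86 to 8.17, lay above those of the controls, from 7.52 to 7.66. At E13.5 9 of the 12 were lower, and 0 were called by limma or had an unadjusted p under 0.05. The 10 tested skeletal muscle markers were higher in mutants at both stages with 0 called by limma, and 1 at E13.5 and 3 at E14.5 had an unadjusted p under 0.05. In the cartilage (6 tested), neuron (7), Schwann cell and crest glia (4), endothelium (7) and macrophage (4) lists, 0 were called at either stage by limma. All 6 cartilage markers were higher in mutants at E13.5 with a median of 0.88. They ran from Sox9 at 0.04 ± 0.10 to Epyc, a cartilage proteoglycan gene, at 1.30 ± 0.36. At E14.5 4 of 6 were higher with a median of 0.13. At E13.5 the neuron list had 6 of 7 higher (median 0.20), the Schwann cell list 4 of 4 higher (0.16), the endothelium list 5 of 7 lower (-0.05) and the macrophage list 2 of 4 lower (0.01). At E14.5 these lists had 5 of 7 higher (0.13), 3 of 4 lower (-0.06), 6 of 7 lower (-0.13) and 2 of 4 lower (0.00). The counts at an unadjusted p under 0.05 were 4, 0, 0, 0 and 0 at E13.5, and 1, 0, 1, 3 and 1 at E14.5.

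Each of the 4 Irx genes was correlated with each of the 9 cell type lists within the groups, 36 relations in all. None passed after adjustment. The smallest p was for Irx1 with the oral epithelium list at r = 0.63 (exact permutation p = 0.0179, adjusted p = 0.549 over the 36), and Irx2 with that list was at r = 0.589 (exact permutation, adjusted p = 0.549). Irx2 with the skeletal muscle list was at r = 0.642 (exact permutation, adjusted p = 0.567). Among the 3 arrays low for Irx1 and Irx2, E14.5 controls 1 and 3 were also lowest for muscle markers, at 5.47 and 5.41 against 6.48 to 6.74 in the other controls, while E13.5 control 1 was the highest of its group at 7.05. These correlations hold genotype fixed and do not bear on the difference between genotypes. The part of cell makeup in that difference was not tested.

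**Figure D4:**
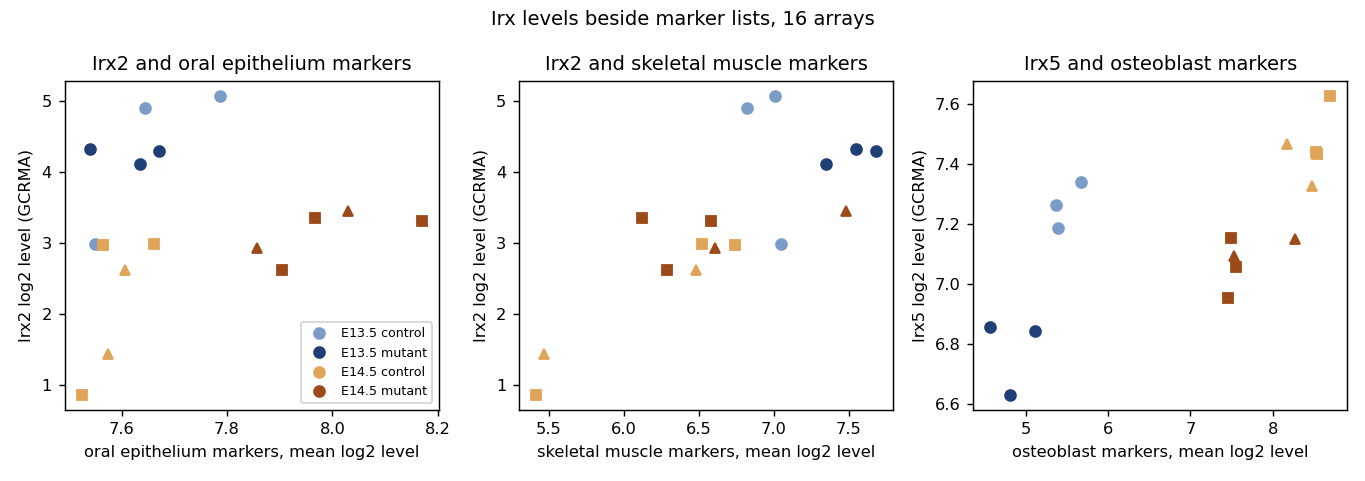
Mean log2 signal of a marker list (horizontal axis) against the log2 signal of an Irx gene (vertical axis) on the 16 arrays, coloured by group with a symbol for each batch label: Irx2 with oral epithelium, Irx2 with skeletal muscle and Irx5 with osteoblast markers. E14.5 controls 1 and 3 combine low muscle marker means of 5.47 and 5.41 with low Irx2 signals of 1.43 and 0.87, while E13.5 control 1 has a low Irx2 signal of 2.99 and a muscle mean of 7.05, the highest of its group.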

How the data were processed

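RNA was measured on 16 one-colour Affymetrix arrays. The deposited values are log2 signals, and the submitters' processing notes name GCRMA as the authors' method. Whether the stages were normalized together, and with which version, is not given in the sources used here. Irx genes and all lists were chosen with earlier results of these data known.

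The platform annotation gave 1 gene for 34958 probe sets, several for 932 and none for 9211. For a gene with several probe sets the one of highest mean signal was kept, and 11116 of 18194 genes had at least 3 arrays at log2 4 or more. limma 3.58.1 in R 4.3.3 (lmFit, eBayes) was fitted once to all arrays with the 4 groups and the batch within E14.5. The threshold for a call was 0.05 after Benjamini-Hochberg adjustment over all genes tested. The scripts were tested on simulated data. Correlations within groups used all 5184 permutations within stage, genotype and batch, with a smallest possible p of 0.00019. Besides the 6 Irx genes, the genes named were those most like each tested Irx gene, the nearest named neighbours of both groups, and list genes. List genes were named where they passed, where the lists were built around them, or for their difference or p within the list. Epyc, Meis1, Fgf10, Msx1 and Mn1 did not pass and were named in this last way, by their outcome. Positions of neighbours and promoter sequences come from RefSeq tables of GRCm38.p6. Arrays of 1 group correlated at 0.993 to 0.997 and none were identical. For arrays, their number limits the precision. Alternatives changed the filter, the probe set rule, the scaling, the batch, sex and weight terms, the replicate block and the arrays used.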

Additional observations from a re-analysis of the deposited data

Results flagged for a closer look

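Dixon's test was applied to the E14.5 groups of 5 arrays, 40 groups of values in all, with a critical ratio of 0.71 that marks about 5% of groups by chance. It marked no Irx gene at E14.5 and 4 list means. The E13.5 groups of 3 arrays were not tested, and there control 1 was low for Irx1 (3.85 against 5.64 and 5.60) and for Irx2 (2.99 against 4.90 and 5.06). The mean of the TALE homeobox genes in E14.5 control 2 was 6.74, below the other controls. In E14.5 mutant 2 the mean of the osteoblast markers was 8.27 and that of the cartilage markers 4.89, both above the other mutants, and that of the macrophage markers was 5.81, below them. The Irx3 and Irx5 signals of that mutant, 8.17 and 7.15, lay within the range of the other mutants or at its top.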

How the results depend on the processing

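The number of Irx genes called at E13.5 was 1. It was 0 with every probe set tested on its own, with a sex term, with the replicate block, with E13.5 arrays alone, without E14.5 controls 1 and 3, and without those and E13.5 control 1, an alternative chosen after seeing the data. It was 2 with array weights and 0 to 1 with single arrays left out. At E14.5 it was 2. It became 0 with batch 1 as the only E14.5 batch, and 1 with batch 2 as the only one and without the 3 low controls. The E13.5 arrays stayed in both batch fits. The count for the difference between the stages was 0 throughout. Called stage changes in controls were 3 (Irx1, Irx2 and Irx5, with Irx2 tested only through its E13.5 arrays). They were 5 with no filter on low signal, 2 to 3 with single arrays left out, and 2 with quantile normalization or centring, where Irx1 and Irx2 were no longer called and Irx3 was. In mutants they were 1, against 4 with no filter, 3 with arrays centred on their medians and without the 3 low controls, 2 with the mean over probe sets, quantile normalization, no batch term, an intensity trend, the replicate block or without E14.5 controls 1 and 3, and 1 to 3 with single arrays left out. Correlated pairs were 2, against 0 within E14.5 alone, 1 without the 3 low controls and 0 to 2 with single arrays left out. Each of these subsets allows fewer permutations, which raises the smallest possible p. Where such counts moved, the cause was not tested.

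Directions of Irx3 and Irx5 between genotypes held under all 29 alternatives at E13.5 and all 31 at E14.5. At E14.5 Irx3 ran from -0.47 to -0.33 and Irx5 from -0.44 to -0.27, each past the threshold in 29 of 31. Irx3 was called in neither fit with a single E14.5 batch. Most alternatives share nearly all arrays, and all rest on the values that chose the family, so nothing is read from these counts. In the main fit 2.63% of all genes were called at E14.5. The E13.5 differences with single arrays left out ran from -0.73 to 0.17 for Irx1 and from -0.74 to 0.30 for Irx2, positive without control 2 (0.17 and 0.21) or control 3 (0.15 and 0.30). Stage changes that reversed were Irx1 in controls (0.0071 with quantile normalization, 0.37 with centring) and in mutants (0.68 and 1.10), Irx2 in mutants (0.58 and 0.68), and Crnde in controls (0.19 with centring) and in mutants (0.12 and 0.33). The stage difference of Irx3, -0.04, became 0.0049 with centring, 0.025 with a sex term, 0.028 without E14.5 controls 1 and 3, and -0.085 to 0.019 with single arrays left out.

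Over all genes, the 11 called at E13.5 became 6 with the replicate block and 85 with array weights. The 292 at E14.5 became 31 with batch 1 as the only E14.5 batch and 371 with no batch term. The 13 for the difference between stages became 3 to 40. Arrays with the same replicate number did not deviate together (r from -0.169 to 0.166 at E13.5 and from -0.274 to 0.0553 at E14.5). Each group and batch holds few arrays, so these values cannot show whether same-numbered arrays share a litter or a day. The labels state no pairing, and the main fit did not pair the arrays.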
